A study of Chlamydomonas reinhardtii with 2 samples.

Results

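Genes for starch metabolism and glycolysis were examined in Chlamydomonas reinhardtii, a unicellular green alga that stores carbon as starch in its chloroplast. The genes were taken from the deposited table by symbol, namely those of starch synthases, branching and debranching enzymes, amylases, phosphorylases, glucan dikinases and glycolytic enzymes. The rule matched 42 of 17147 genes. No matched gene carried a description of another function, so none was dropped. Starch synthesis had 9 genes, starch breakdown 14 and glycolysis 19. No matched gene had the symbol STA1, STA2, STA3 or ISA1, so the synthesis class covers only part of its pathway. All 42 had a mean of at least 1 RPKM (read counts per unit of transcript length and of sequencing depth) over both libraries, which was the filter for every count, and 13855 genes of the table passed it.

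Cells of strain CC-1690 (21gr), a wild type, were held for 24 h in acetate medium without added phosphate (phosphate deprived) or with 1.1 mM phosphate (phosphate replete). Both cultures grew at 25 °C under constant light (70 µmol m-2 s-1) on a shaker set to 200 rpm. Acetate, a carbon source for this alga, was in both media. RNA sequencing was done on 1 library per condition, so no value has a replicate error, no test across samples was possible, and every difference is one between these 2 libraries. The labels were checked with PHOX, PTB2 and PSR1, genes known to respond to phosphate deprivation. Their values were known from earlier results of these data, so the check was not independent. PHOX, a phosphate-repressible alkaline phosphatase gene, had 124 RPKM in the deprived library, against 0.953 RPKM in the replete library. PTB2 had 2016 RPKM in the deprived and 148 RPKM in the replete library, and PSR1 had 16.4 RPKM in the deprived and 0.659 RPKM in the replete library.

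Starch is built from ADP-glucose. ADP-glucose pyrophosphorylase makes this precursor from glucose-1-phosphate and ATP and is activated by 3-phosphoglycerate and inhibited by inorganic phosphate. Starch synthases extend the glucan chains, branching enzymes add branch points, and isoamylases trim misplaced branches. Breakdown uses glucan phosphorylation by dikinases, hydrolysis by amylases, and phosphorolysis, in which phosphorylases release glucose-1-phosphate with inorganic phosphate as a substrate. Glycolysis turns hexose phosphates into pyruvate. In Chlamydomonas its early steps run mainly in the chloroplast and its late steps in the cytosol. Starch is known to accumulate in this alga when growth is limited by nutrients.

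The matched starch synthesis genes were mostly higher in the deprived library. Of 9 genes, 8 lay above 0 on the log2 scale and 5 were at least 1.5-fold higher (SSS5, SBE1, SSS1, SSS4 and SBE3). None was at least 1.5-fold lower. Of all 13855 genes, 62.0% lay above 0. Folds are the log2 ratio of deprived to replete RPKM with 1 RPKM added to each, which understates differences of weakly expressed genes, and 1.5-fold is 0.58 on that scale. Over all 13855 genes, 18.1% passed 1.5-fold on the higher side and 6.66% on the lower side. Past 2-fold lay 5.59% of all genes on the higher side and 1.64% on the lower side. The median log2 fold was 0.62 for starch synthesis, against 0.14 for all genes. These are descriptions of 2 libraries, and whether the class differs from other genes beyond culture-to-culture variation was not tested.

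Breakdown and glycolysis were split. Of the 14 breakdown genes 7 lay above 0 and 7 below as deposited, with a median of -0.03. In this class 2 genes (PHOA and PHOB) exceeded 1.5-fold and 2 (AMYA1 and GWD2) were at least 1.5-fold lower. Of the 19 glycolysis genes 11 lay above 0 and 8 below, a share above 0 of 57.9% against 62.0% of all genes, with a median of 0.33. That median was -0.085 without PGM2, PGM3, PGM4 and PGM6, a removal chosen after the values were seen. Here 5 genes (GAP2, PYK4b, PFK1, PGM2 and PFK2) were past 1.5-fold on the higher side and 2 (PYK1 and PYK5) on the lower side. At 2-fold, 4 of the 42 genes were higher and 1 lower, shares of 9.52% and 2.38%.

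**Figure D1:**
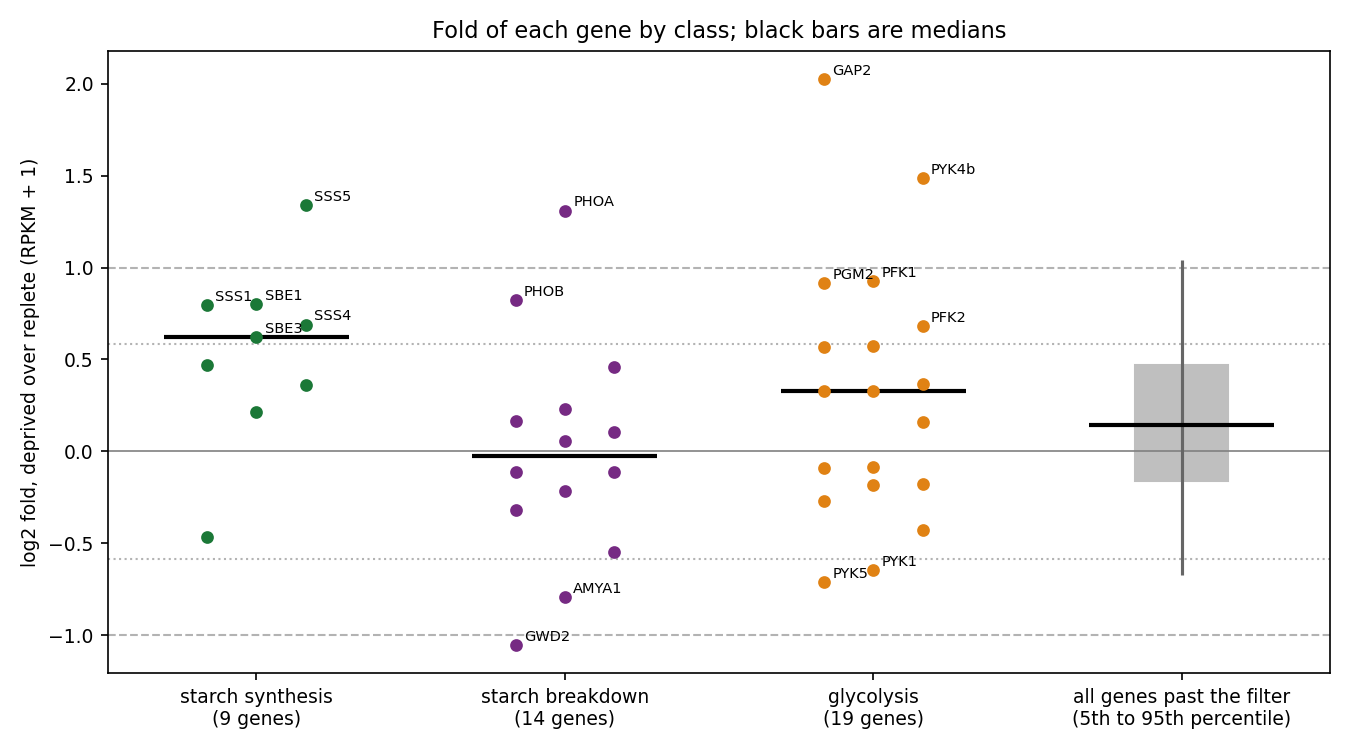
Log2 fold of each gene, deprived over replete, in starch synthesis, starch breakdown and glycolysis, with 1 point per gene and a black bar at the class median; dotted and dashed lines mark 1.5-fold and 2-fold. The grey box and line show the quartiles and the 5th to 95th percentiles of 13855 genes. Starch synthesis has 1 gene below 0, while breakdown and glycolysis reach to both sides.

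The split between higher and lower genes moved with scaling. As deposited, 73.1% of the genes at least 1.5-fold different in the whole table were higher in the deprived library. The share was 49.0% with both libraries set to the same median, 52.7% with trimmed means, 49.4% with quantiles and 80.0% with both set to a common sum. The median over all genes moved by -0.17, -0.15, -0.17 and 0.06 in these scalings. In starch synthesis, 5 genes higher and 0 lower became 3 and 1 with the same median and with trimmed means, with SSS2 as the lower gene, and 3 and 0 with quantiles. In glycolysis, 5 higher and 2 lower became 4 and 3 with the same median and with trimmed means, 4 and 2 with quantiles, and 7 and 1 with a common sum. In breakdown, 2 higher and 2 lower became 2 and 3 with each of these scalings but the common sum. Breakdown genes above 0 numbered 7 with a common sum, 4 with the same median, 4 with trimmed means and 5 with quantiles. Synthesis kept 8 genes above 0 in each, and glycolysis had 10 or 11. The order of the class medians, with synthesis above glycolysis, glycolysis above all genes, and breakdown below all genes, was the same as deposited and in each of the 4 scalings. It did not hold for glycolysis without the 4 PGM genes above, nor for summed RPKM, which abundant genes dominate. As deposited, the summed RPKM of breakdown was 1.38 times, that of synthesis 1.21 times and that of glycolysis 0.996 times as high in the deprived as in the replete library.

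**Figure D2:**
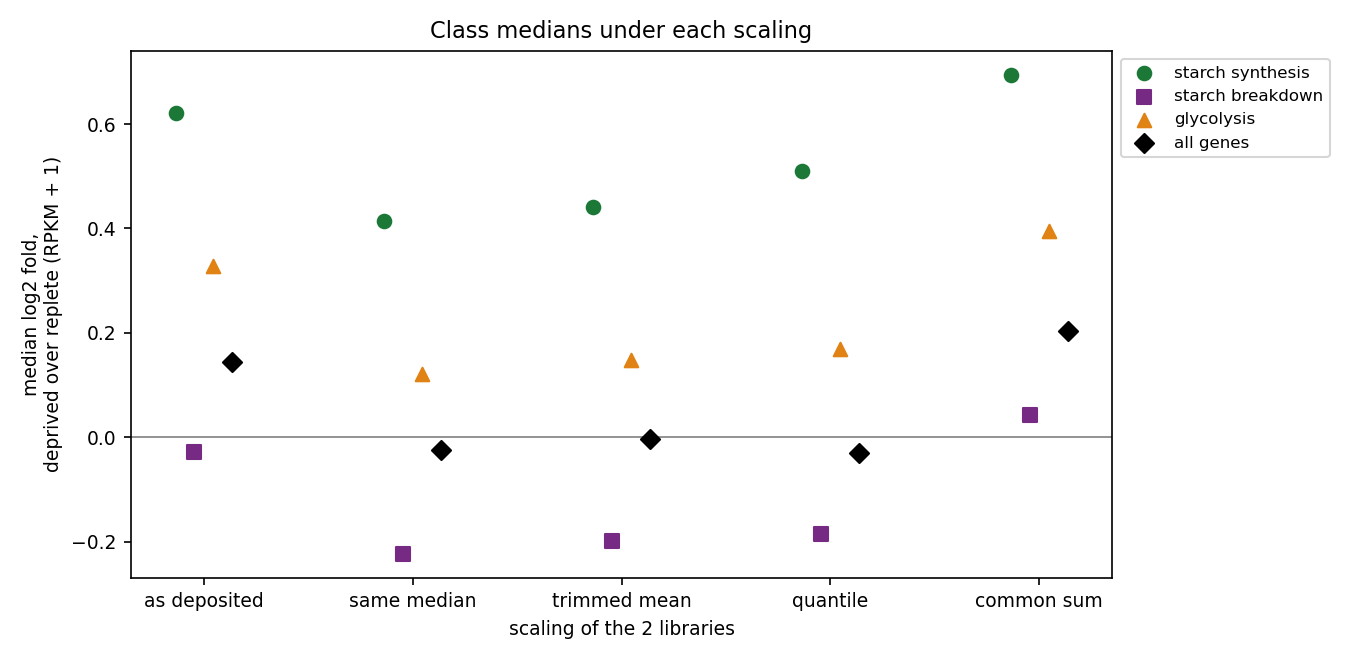
Median log2 fold, deprived over replete, of each class and of all genes under each scaling of the 2 libraries; each point is 1 median. Starch synthesis has the highest median under each scaling shown, and the breakdown median lies below that of all genes.

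**Figure D3:**
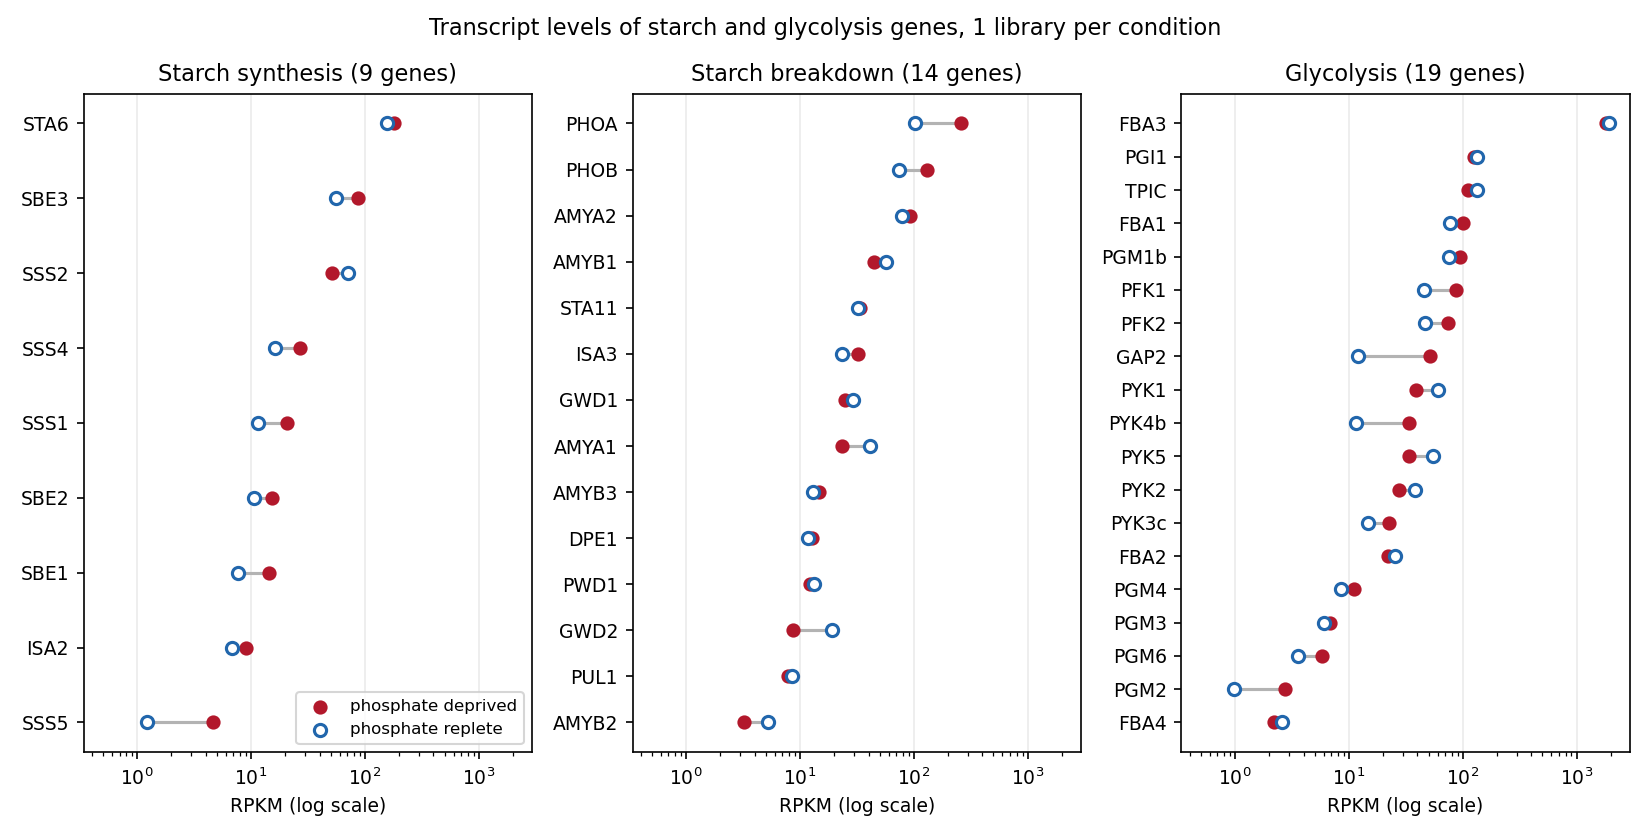
RPKM of each gene on a log axis in the phosphate deprived library (filled points) and the phosphate replete library (open points), by class and ordered by the deprived value. The widest gaps are those of SSS5, PHOA, GWD2, GAP2, PYK4b and PGM2.

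In starch synthesis, STA6 codes for the catalytic small subunit of ADP-glucose pyrophosphorylase, without which Chlamydomonas makes almost no starch. STA6 was the most abundant gene of the class, with 181 RPKM in the deprived and 156 RPKM in the replete library (log2 fold 0.22). Its fold lay close to that of the median gene, and with the same median in both libraries it was 0.0071. A locus without symbol (Cre16.g683450) is described as a large, regulatory subunit and lies outside the symbol rule; it was chosen after its values were seen. It had 11.4 RPKM in the deprived and 5.81 RPKM in the replete library (0.86). STA6 thus exceeded this locus in RPKM in both libraries, and any other large subunit locus was not analysed here.

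The soluble starch synthases did not move together. SSS5, described as a putative starch synthase IV, had 4.60 RPKM in the deprived and 1.21 RPKM in the replete library, a log2 fold of 1.34. This was the largest fold of the class, 3.79 times without the added 1 RPKM. SSS1, a putative starch synthase I gene, had 20.6 RPKM in the deprived and 11.4 RPKM in the replete library (0.80). SSS4, another soluble starch synthase gene, had 26.7 RPKM in the deprived and 16.2 RPKM in the replete library (0.69). SSS2, for soluble starch synthase II, was the only gene of the synthesis class below 0, with 51.4 RPKM in the deprived and 71.2 RPKM in the replete library (-0.46).

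Summed over the 4 symbols, the synthases were nearly level, with 103 RPKM in the deprived and 100.1 RPKM in the replete library, while their composition differed. SSS2 made up 49.7% of this sum in the deprived and 71.2% in the replete library. SSS4 made up 25.9% in the deprived and 16.2% in the replete library, and SSS1 made up 19.96% in the deprived and 11.4% in the replete library. SSS5 stayed a small part, with 4.45% in the deprived and 1.21% in the replete library. Such shares do not change when a library is multiplied by a single factor, but quantile normalization, which moves genes by different amounts, can change them. A further locus described as a soluble starch synthase (Cre12.g521700), outside the symbol rule and chosen after its values were seen, had 1.51 RPKM in the deprived and 2.37 RPKM in the replete library (-0.43). The granule-bound starch synthase gene GBS2, chosen likewise, lay below the filter. It had 0.650 RPKM in the deprived and 0.553 RPKM in the replete library.

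Branching enzymes were higher in the deprived library without a difference in composition of that size. They transfer cut chain ends to form branch points. SBE3, the most abundant of them, had 86.4 RPKM in the deprived and 55.8 RPKM in the replete library (0.62). SBE1 had 14.3 RPKM in the deprived and 7.76 RPKM in the replete library (0.80), and SBE2 had 15.2 RPKM in the deprived and 10.7 RPKM in the replete library (0.47). All 3 stayed above 0 under the 7 alternative pseudocounts and scalings, although SBE3 fell short of 1.5-fold under 3 scalings. SBE3 held 74.6% of the family's summed RPKM in the deprived and 75.2% in the replete library. The debranching enzyme gene ISA2 had 9.005 RPKM in the deprived and 6.80 RPKM in the replete library (0.36).

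**Figure D4:**
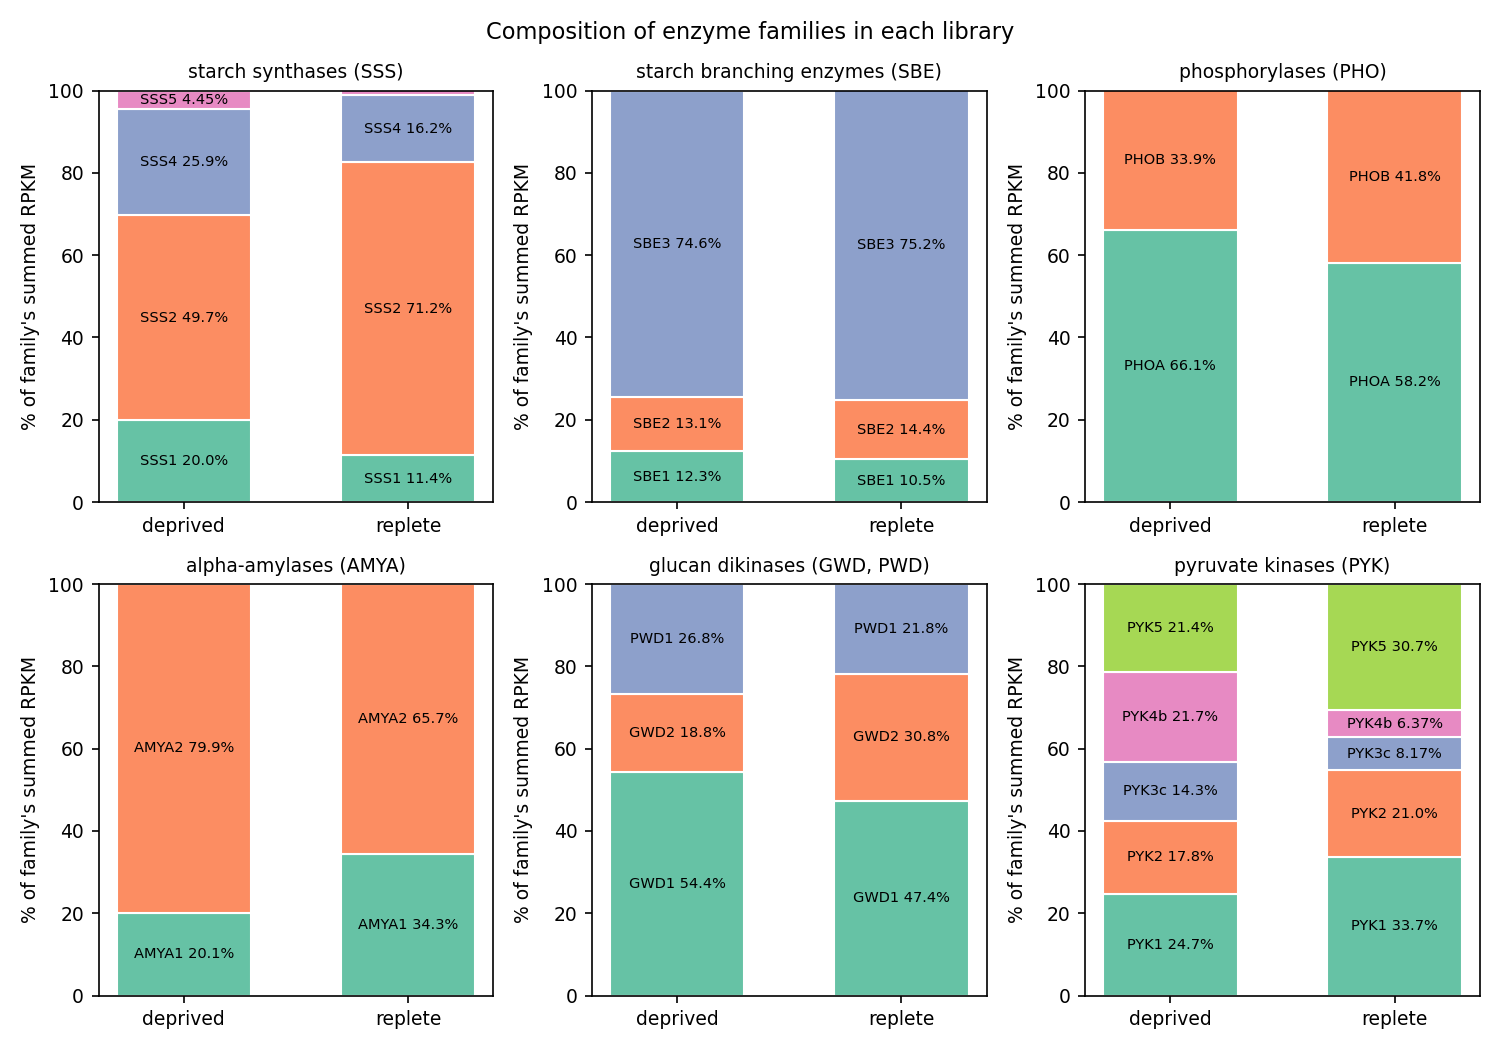
Share of each gene in the summed RPKM of its enzyme family, in percent, with the deprived library to the left of the replete library in each panel; segments are genes. SSS2 holds 49.7% of the synthase sum in the deprived and 71.2% in the replete library, and PYK4b holds 21.7% of the pyruvate kinase sum in the deprived and 6.37% in the replete library, while the branching enzyme bars are alike.

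In starch breakdown, both phosphorylase genes were higher in the deprived library. PHOA had 257 RPKM in the deprived and 103 RPKM in the replete library (1.31). PHOB, the gene whose loss lowers starch content in the sta4 mutant of this alga, had 132 RPKM in the deprived and 74.0 RPKM in the replete library (0.82). They were the most abundant breakdown genes in the deprived library, and both stayed at least 1.5-fold higher under the 7 alternatives. PHOA held 66.1% of the phosphorylase sum in the deprived and 58.2% in the replete library. With phosphorylases included, the summed RPKM of the 14 breakdown genes was 699.6 in the deprived and 509 in the replete library. The sum was thus higher in the deprived library although the median fold was not. The 2 phosphorylase genes gave 388 RPKM of it in the deprived and 177 RPKM in the replete library. Without them, the summed RPKM of the remaining breakdown genes was lower in the deprived library.

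The dikinases, which attach phosphate groups to starch and open its surface to hydrolysis, lay below 0. GWD2, an alpha-glucan water dikinase gene, had 8.61 RPKM in the deprived and 18.9 RPKM in the replete library (-1.05). It was the only one of the 42 genes at least 2-fold lower, although it missed 2-fold with a common sum (-0.98) and with 5 RPKM added (-0.81). GWD1, of the same description, had 24.9 RPKM in the deprived and 29.1 RPKM in the replete library (-0.21). The phosphoglucan water dikinase gene PWD1 had 12.3 RPKM in the deprived and 13.4 RPKM in the replete library (-0.11). GWD2 made up 18.8% of the RPKM of the 3 dikinase genes in the deprived and 30.8% in the replete library.

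The alpha-amylase genes differed from each other. These enzymes cut starch within its chains. AMYA1 had 23.2 RPKM in the deprived and 41.0 RPKM in the replete library (-0.79), whereas AMYA2 had 92.3 RPKM in the deprived and 78.4 RPKM in the replete library (0.23). Their sum was 115 RPKM in the deprived and 119 RPKM in the replete library, and AMYA1 held 20.1% of it in the deprived and 34.3% in the replete library. A locus described as alpha-amylase-like (Cre08.g384750), outside the symbol rule and chosen after its values were seen, had 54.2 RPKM in the deprived and 17.6 RPKM in the replete library (1.57).

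Beta-amylases release maltose from chain ends. AMYB1 had 45.1 RPKM in the deprived and 56.4 RPKM in the replete library (-0.32), and AMYB2 had 3.25 RPKM in the deprived and 5.21 RPKM in the replete library (-0.55). AMYB2 was at least 1.5-fold lower under 5 of the 7 alternatives, among them 3 of the scalings. AMYB3 had 14.6 RPKM in the deprived and 12.9 RPKM in the replete library (0.16), with a sign that turned after 2 of the scalings. The isoamylase gene ISA3, of a debranching enzyme, had 32.5 RPKM in the deprived and 23.4 RPKM in the replete library (0.46). The pullulanase-type debranching gene PUL1 had 7.78 RPKM in the deprived and 8.48 RPKM in the replete library (-0.11). The 4-alpha-glucanotransferases, which pass short glucans between chains, were nearly level. STA11 had 33.9 RPKM in the deprived and 32.6 RPKM in the replete library (0.06), and DPE1 had 12.8 RPKM in the deprived and 11.9 RPKM in the replete library (0.11). Both of these signs turned after 3 of the scalings.

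In glycolysis, the 7 genes at least 1.5-fold different belonged to phosphofructokinase, glyceraldehyde-3-phosphate dehydrogenase, phosphoglycerate mutase and pyruvate kinase. Phosphofructokinase commits hexose phosphates to glycolysis. PFK1 had 87.3 RPKM in the deprived and 45.5 RPKM in the replete library (0.93). PFK2, described as probably targeted to the plastid, had 74.7 RPKM in the deprived and 46.2 RPKM in the replete library (0.68). PFK1 was at least 1.5-fold higher under the 7 alternatives, and PFK2 under 4 of them. Phosphoglucose isomerase (PGI1), which feeds this step, had 125 RPKM in the deprived and 133 RPKM in the replete library (-0.09). The ratio of PFK1 to PGI1 within a library was 0.70 in the deprived and 0.34 in the replete library.

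Aldolases split fructose-1,6-bisphosphate into triose phosphates and also serve the Calvin-Benson cycle. FBA3, described as probably plastidic, was the most abundant of the 42 genes, with 1825 RPKM in the deprived and 1936 RPKM in the replete library (-0.09). It held 93.6% of the aldolase sum in the deprived and 94.9% in the replete library. Its fold turned above 0 with quantile normalization, to 0.17. FBA1 had 99.7 RPKM in the deprived and 77.1 RPKM in the replete library (0.37), FBA2 had 22.2 RPKM in the deprived and 25.2 RPKM in the replete library (-0.18), and FBA4 had 2.18 RPKM in the deprived and 2.61 RPKM in the replete library (-0.18). The chloroplast triose phosphate isomerase gene TPIC had 111 RPKM in the deprived and 134 RPKM in the replete library (-0.27).

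GAP2 had the largest fold of the 42 genes. It codes for a glyceraldehyde-3-phosphate dehydrogenase that the deposited table describes as probably cytosolic, an enzyme that uses inorganic phosphate as a substrate. GAP2 had 51.6 RPKM in the deprived and 11.9 RPKM in the replete library, a log2 fold of 2.03, and 136 of the 13855 genes had a larger fold. The chloroplast enzyme of the Calvin-Benson cycle, GAP3, lay on the other side, with 1232 RPKM in the deprived and 1863 RPKM in the replete library (-0.60). The ratio of GAP2 to GAP3 was 0.0419 in the deprived and 0.00639 in the replete library, so GAP2 remained a small part in both.

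The gene next to GAP2 codes for the following enzyme of the pathway. PGK2, described as the probable cytosolic phosphoglycerate kinase, had 3.40 RPKM in the deprived and 1.03 RPKM in the replete library (1.12). In the RefSeq gene order of assembly Chlamydomonas_reinhardtii_v5.5, 0 genes lie between GAP2 (Cre07.g354200) and PGK2 (Cre07.g354250). The chloroplast form PGK1 had 329 RPKM in the deprived and 398 RPKM in the replete library (-0.28). GAP1a, annotated as the dominant splice variant of a further dehydrogenase gene, is outside the rule, which asks for GAP1, and was chosen after its values were seen. It had 1359 RPKM in the deprived and 621 RPKM in the replete library (1.13). Within a library, the ratio of GAP1a to GAP3 was 1.10 in the deprived and 0.333 in the replete library, so the more abundant of these 2 genes was GAP1a in the deprived and GAP3 in the replete library. The nonphosphorylating dehydrogenase gene GAPN1, whose enzyme bypasses the phosphate-using step, had 2.10 RPKM in the deprived and 4.80 RPKM in the replete library (-0.90).

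**Figure D5:**
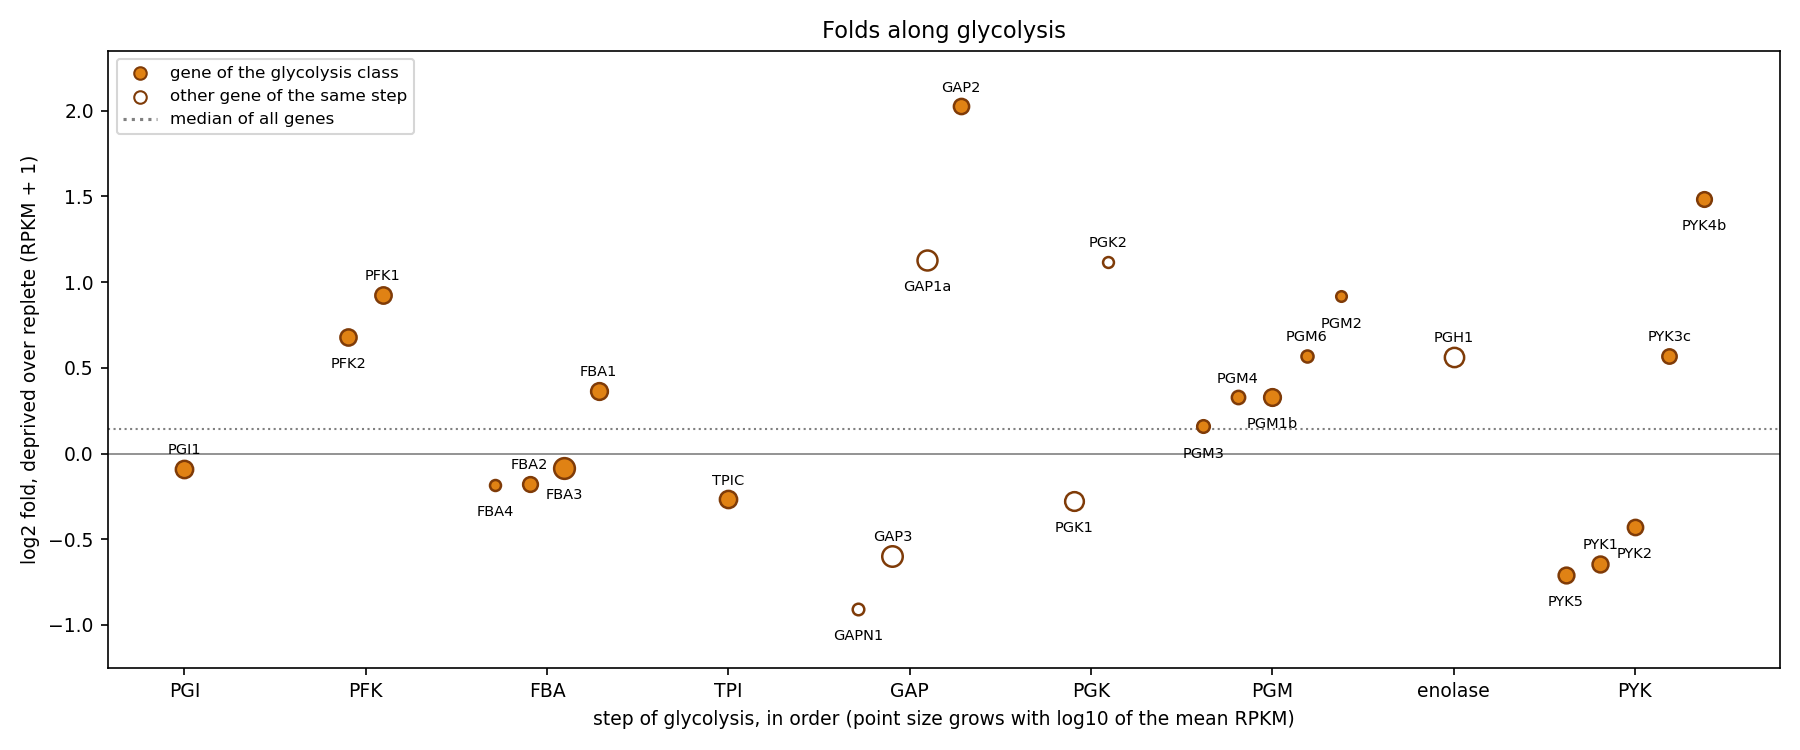
Log2 fold, deprived over replete, of each gene along the steps of glycolysis; filled points are genes of the glycolysis class, open points are other genes of the same step, and the dotted line is the median of all genes. The steps FBA, GAP, PGK and PYK hold genes on both sides of 0, with GAP2 at 2.03 and PYK4b at 1.49 as the highest.

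All 5 phosphoglycerate mutase genes lay above 0 as deposited, although PGM3 fell below 0 with 2 of the scalings. The bisphosphoglycerate-independent enzyme gene PGM1b, which held 78.1% of the family sum in the deprived and 79.6% in the replete library, had 94.4 RPKM in the deprived and 74.9 RPKM in the replete library (0.33). PGM2 had 2.74 RPKM in the deprived and 0.980 RPKM in the replete library (0.92), PGM6 had 5.81 RPKM in the deprived and 3.59 RPKM in the replete library (0.57), PGM4 had 10.98 RPKM in the deprived and 8.54 RPKM in the replete library (0.33), and PGM3 had 6.88 RPKM in the deprived and 6.06 RPKM in the replete library (0.16). These 4 are described only as members of the phosphoglycerate and bisphosphoglycerate mutase family. They are the genes left out above for the glycolysis median of -0.085. The enolase gene PGH1, outside the symbol rule and likewise chosen after its values were seen, had 680.1 RPKM in the deprived and 459 RPKM in the replete library (0.57).

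Pyruvate kinase, the enzyme of the final step, makes ATP and pyruvate, and its 5 genes went in opposite directions. PYK4b had 33.9 RPKM in the deprived and 11.5 RPKM in the replete library (1.49). PYK3c had 22.3 RPKM in the deprived and 14.7 RPKM in the replete library (0.57). On the other side, PYK1 had 38.5 RPKM in the deprived and 60.7 RPKM in the replete library (-0.64), PYK5 had 33.4 RPKM in the deprived and 55.2 RPKM in the replete library (-0.71), and PYK2 had 27.8 RPKM in the deprived and 37.8 RPKM in the replete library (-0.43). The table describes PYK1 and PYK2 as probably cytosolic. None of the 5 signs turned under the 7 alternatives.

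The sum of the pyruvate kinases was 156 RPKM in the deprived and 179.8 RPKM in the replete library, a ratio of 0.867. Taken as a ratio, not in RPKM, this difference was smaller than those of single genes. PYK4b held 21.7% of the sum in the deprived and 6.37% in the replete library. PYK1 held 24.7% in the deprived and 33.7% in the replete library, and PYK5 held 21.4% in the deprived and 30.7% in the replete library. In the deprived library the genes thus lay closer to equal shares. PYK3c and PYK4b are each annotated as 1 of several possible gene models at their locus, and the sources used here do not say how reads of such variants or of close copies were assigned.

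Genes of reactions that border these pathways were read from a separate symbol list of 22 genes, of which 21 passed the filter. Past 1.5-fold in that list lay 2 higher and 5 lower genes, shares of 9.52% and 23.8% against 18.1% and 6.66% of all genes. Its median was -0.020, against 0.14 for all genes. The list was not recounted under the other scalings. PGK2, above, and PDC3 were the higher genes. PDC3, for an E1 alpha subunit of the mitochondrial pyruvate dehydrogenase complex, had 107 RPKM in the deprived and 56.5 RPKM in the replete library (0.91). PDC1, of the same description, was not higher, with 73.2 RPKM in the deprived and 79.1 RPKM in the replete library (-0.11). The E1 beta gene PDH1a and the plastid E1 alpha gene PDC2 had log2 folds of -0.02 and -0.57. PDH2, a pyruvate dehydrogenase E1 beta gene described as probably plastidic, had 84.0 RPKM in the deprived and 154 RPKM in the replete library (-0.87). PCK1b, for phosphoenolpyruvate carboxykinase, a gluconeogenic enzyme, had 287 RPKM in the deprived and 501 RPKM in the replete library (-0.80). TPT2, a triose phosphate/phosphate translocator gene, had 8.50 RPKM in the deprived and 16.05 RPKM in the replete library (-0.84). The more abundant APE2, for a triose phosphate translocator, was higher instead, with 356 RPKM in the deprived and 246 RPKM in the replete library (0.53). The phosphate/phosphoenolpyruvate translocator gene TPT1 was also higher in the deprived library (0.41). APE2 and TPT1 both fell short of 1.5-fold. GAPN1 and GAP3, above, were the other genes past 1.5-fold on the lower side. The cytosolic phosphoglucomutase candidate GPM1b, the hexokinase gene HXK1 and the fructose-1,6-bisphosphatase gene FBP1 had log2 folds of 0.21, 0.04 and 0.04.

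The precision behind the weakest genes can be stated only under an assumption, since RPKM values carry no read count. The assumption is a fixed added count per gene in each of 2 runs, inferred from the values. Then 1 RPKM stands for about 14.3 counts in the deprived and 12.4 counts in the replete library at a length of 1000 bases. At that length SSS5 would rest on 64 reads in the deprived and 13 reads in the replete library, and its ratio of 3.79 would have a 95% exact (Clopper-Pearson) interval of 2.34 to 8.48. PGM2 would rest on 37 reads in the deprived and 10 reads in the replete library, with an interval of 1.57 to 7.26 around 2.80. GWD2 would rest on 121 reads in the deprived and 234 reads in the replete library, and its ratio of 0.455 would have an interval of 0.358 to 0.563. For FBA4, with 29 reads in the deprived and 30 reads in the replete library, the interval would be 0.487 to 1.45. It includes 1, so a difference was not detectable at this assumed depth. These intervals cover counting error only and say nothing of variation between cultures.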

How the data were processed

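RNA sequencing values of 2 libraries, 1 phosphate deprived and 1 phosphate replete, were used. Columns were assigned to libraries through the code that GEO's description gives for each. The authors deposited RPKM values for 17147 loci. The submitters' processing notes name Bowtie, without a version. The sources used here do not give the counting method, strand use, genome build or annotation version, so no coordinates are printed, and values of close copies or overlapping genes are uncertain to that extent.

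The deposited RPKM values contain no 0. A ratio of 0.870 (deprived over replete) recurs in 1249 genes. Of these, 1087 could be tested, and all 1087 divide the highest replete value among them into a whole number (tolerance 0.02), against 897 of 15670 other genes. This has the pattern of a count added to every gene. The read numbers further took each library as 2 runs with such a count, and the highest value as that of a single base. With fewer runs the read numbers would be smaller and the intervals wider. These are inferences that no source states, and the read numbers for a length of 1000 bases rest on them. No gene of the 3 classes lies at that ratio.

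Folds were computed as log2((deprived + 1) / (replete + 1)) in RPKM, and the 13855 genes with a mean of at least 1 RPKM entered counts at 1.5-fold and 2-fold. With 1 library per condition there was no test and no p-value. Classes followed the symbol, with ISA2 in synthesis and ISA3, PUL1, DPE1 and STA11 in breakdown. PHOA and PHOB were also placed in breakdown, although loss of PHOB lowers starch content, so the class names do not settle what each gene does. Without debranching enzymes and glucanotransferases the median log2 fold was 0.66 for synthesis and -0.16 for breakdown. No alternative moved PHOA or PHOB out of breakdown. By rule all 42 genes are named, and genes of neighbouring reactions where at least 1.5-fold different; a few others are named beside the step they share. The members and lists were chosen with earlier results of these data known. The neighbouring list matched 28 symbols, of which 22 remained without genes of other functions and 1 gene of the glycolysis class. RefSeq locus tags matched 39 of the 42 genes and served for gene order alone.

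Alternatives were an added 0.1, 5 or 0 RPKM, setting both libraries to the same median or a common sum, trimmed means (30% trimmed on the log ratio, 5% on the mean), quantiles, another filter (none, or a mean of at least 5 RPKM), members kept whatever their description, and debranching enzymes and glucanotransferases left out. Added after the values were seen were genes matched by description, glycolysis without PGM2, PGM3, PGM4 and PGM6, and removal of genes at the shared ratio. Calculations used Python 3.11.15, pandas 2.3.3, numpy 2.4.6 and scipy 1.17.1. The folds, the 2-fold calls and the scalings were tested on simulated data. The class medians, the shared ratio, the inferred read numbers and their intervals were not.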

Additional observations from a re-analysis of the deposited data

How the results depend on the processing

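No paired analysis was possible because each condition had 1 library, and no library could be left out. Of the 16 genes at least 1.5-fold different, all 16 kept their direction under the 7 pseudocounts and scalings and 11 stayed past 1.5-fold in each. SBE3, PFK2 and SSS4 fell short after 3 scalings (SSS4 also with 5 RPKM), PGM2 with 5 RPKM and PYK1 with a common sum. Of the 26 other genes, 5 changed sign and 5 passed 1.5-fold in at least 1 of them.

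For starch synthesis the genes at least 1.5-fold higher numbered 3 after scaling to the same median, trimmed means and quantiles, 1 gene was lower after the first 2 of these, and those at least 2-fold higher were 0 with 5 RPKM and with a mean of at least 5 RPKM. For breakdown the median was 0.042 with a common sum and 0.055 both with a mean of at least 5 RPKM and with genes matched by description, which also gave 2 genes at least 2-fold higher. Those at least 2-fold lower were 0 with 5 RPKM and with a common sum. For glycolysis the median was 0.12 after scaling to the same median and -0.085 without PGM2, PGM3, PGM4 and PGM6, and 1 gene was at least 1.5-fold lower with a common sum. Causes of these shifts were not tested.

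Over all genes the median was -0.025, -0.0028 and -0.030 after same-median, trimmed mean and quantile scaling. Genes at least 2-fold higher numbered 1277 with 0.1 RPKM, 1376 without pseudocount, 286 with 5 RPKM, 513 (same median), 512 (quantiles) and 511 (mean of at least 5 RPKM). Those at least 2-fold lower numbered 356 without pseudocount, 115 with 5 RPKM, 440, 407 and 395 (same median, trimmed means, quantiles). At 1.5-fold, higher and lower genes numbered 1117 and 531 with 5 RPKM, 1523 and 1587 (same median), 1628 and 1464 (trimmed means), 1489 and 1523 (quantiles), and 1486 were higher with a mean of at least 5 RPKM. Removing the debranching enzymes and glucanotransferases, keeping members whatever their description, dropping the filter, and removing genes at the shared ratio changed no count by more than 1.5 times and no sign. Under the assumed counts and length, counting intervals were widest for FBA4, PGM2 and SSS5 among the class genes. Of these, only the interval of FBA4 included a ratio of 1.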
